A study of Mus musculus with 3 samples.

Results

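The 8 genes described here handle ion balance and osmotic stress: Atp1b1, Atp1b2, Slc12a2, Nfat5, Slc5a3, Slc6a6, Akr1b3 and Sgk1. They were chosen by symbol from the 32285 genes of the count matrices, with earlier results of these data known. Their transcripts were counted in 6091 control cells, 5531 cells given bulk electroporation and 6298 cells given localized electroporation. The cells were mouse neural progenitors, which can form neurons and glia. They came from brains of postnatal day 1 mice and were grown as neurospheres with EGF at 20 ng/mL. All 3 groups shared the age, the plating of 50000 cells, the 16 h of culture before treatment and the collection 4 h after it. Bulk electroporation used a Nucleofector, which pulses all cells of a dish at once, and localized electroporation used 400 pulses of 20 V on the device that carried the cells. The labels name no strain, genotype or cargo, and they do not say whether control cells lay on a dish or on the device, so effects of the device and of the pulses cannot be told apart.

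The sodium pump (Na,K-ATPase) uses ATP to export sodium and import potassium, and it has a catalytic alpha subunit and a beta subunit that folds and targets it. Cells that shrink or swell correct their volume first by moving ions, as the cotransporter NKCC1 (Slc12a2) does, and later by collecting small organic osmolytes such as myo-inositol, taurine and sorbitol. The factor NFAT5 turns on osmolyte transporters and enzymes under hypertonic conditions, and the kinase SGK1 is a transcriptionally induced regulator of ion transport. In the brain, astrocytes rely on these systems to clear potassium and to adjust their volume.

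Each group had 1 library of transcript 3′ ends, which allows no test and no check of any difference against replicates. A cell was a barcode with at least 3000 UMIs (unique molecules counted), 500 detected genes or more, and no more than 20% of UMIs from mitochondrial genes. The cells held 61775756 UMIs for control, 77491732 for bulk and 76177026 for localized electroporation, with medians of 9542, 11644 and 10980.5 UMIs per cell. Levels are UMIs per 1000000 UMIs of the library's cells (CPM, counts scaled to that total), with exact Poisson intervals at 95% that cover counting error only. Doublets were not removed, and the share of cells above 25000 UMIs was 1.12% for control, 9.64% for bulk and 2.75% for localized electroporation. Between 13 and 16 cells per library had a barcode that was also a cell in another library. Astrocyte markers summed to 507 CPM in the control library, to 555 with bulk and to 995 with localized electroporation, with 8 of 9 higher in localized than in control cells. Oligodendrocyte markers summed to 73.9, 66.3 and 158 CPM, with 8 of 9 higher in localized than in control cells and Mog at 0 in control. Oligodendrocyte precursor markers summed to 610, 676 and 883 CPM, with 7 of 8 higher in localized than in control cells, and markers of dividing cells to 1543, 1662 and 1249 CPM, with 1 of 8 higher. The 8 markers of neural stem cells or progenitors summed to 7617, 8624 and 10438 CPM. Markers of microglia summed to at most 0.181 CPM, with Aif1, C1qa, C1qb and Tyrobp at 0 in all libraries. The part that these mixtures of cells have in the results was not tested except where levels within clusters are given.

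The localized library differed most from control in these genes. Slc6a6, Slc5a3, Atp1b2 and Sgk1 stood higher in it, Atp1b1 and Akr1b3 stood lower, and Slc12a2 and Nfat5 lay near the control level. In the bulk library 6 of the 8 genes had ratios to control from 0.931 to 1.13, and Atp1b2 and Sgk1 were higher. A gene was counted as measured when it reached 20 CPM in either library of a comparison, which 7 of the 8 did. Sgk1 stayed below 20 CPM in all 3 libraries and entered only at a minimum of 5 CPM. On log2 ratios of CPM + 1, 0 of the 7 measured genes were past 1.5-fold in bulk over control, where 5.37% of 5810 genes were. In localized over control, 1 of 7 was past 1.5-fold in either direction, beside 9.35% of 5906 genes, and it was the taurine transporter gene Slc6a6. Slc6a6 was higher, as were 6.48% of all measured genes. With the minimum at 5 CPM, Sgk1 joined it, making 2 of 8 higher beside 9.07% of 9776 genes. In bulk over localized electroporation 1 of 7 was past 1.5-fold, again Slc6a6, beside 6.38% of 6002 genes in either direction and 2.98% in its own direction, lower in bulk. Just inside the limit of 1.5-fold in localized over control lay Atp1b2 with a log2 ratio of 0.56 and Slc5a3 with 0.51, while Slc6a6 had 0.76. With cells thinned to 3000 UMIs, 4 of 8 measured genes were past 1.5-fold in localized over control (Atp1b2, Slc5a3, Slc6a6 and Sgk1), beside 9.51% of all genes. The median log2 ratio of the 7 genes was 0.03 for bulk and 0.15 for localized, each over control, and -0.11 in bulk over localized electroporation. Over all measured genes the medians were 0.07, 0.09 and -0.02, so the medians of these genes lay close to those of all genes. The comparisons share libraries with each other and are not independent.

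**Figure D1:**
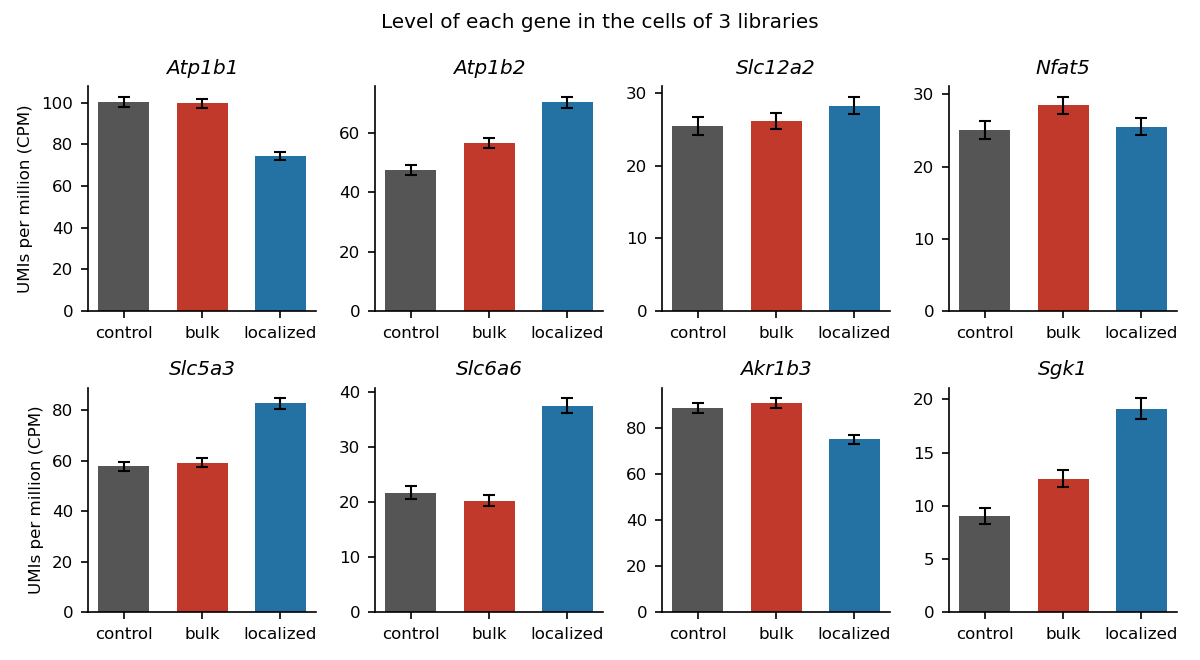
Level of each of the 8 genes in CPM in control, bulk and localized electroporation cells, 1 library each, with exact Poisson intervals at 95% that cover counting error only. Slc6a6 stood at 37.5 CPM in localized cells against 21.7 in control and 20.2 in bulk, and Atp1b1 at 74.3 against 100.3 and 99.7.

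**Figure D2:**
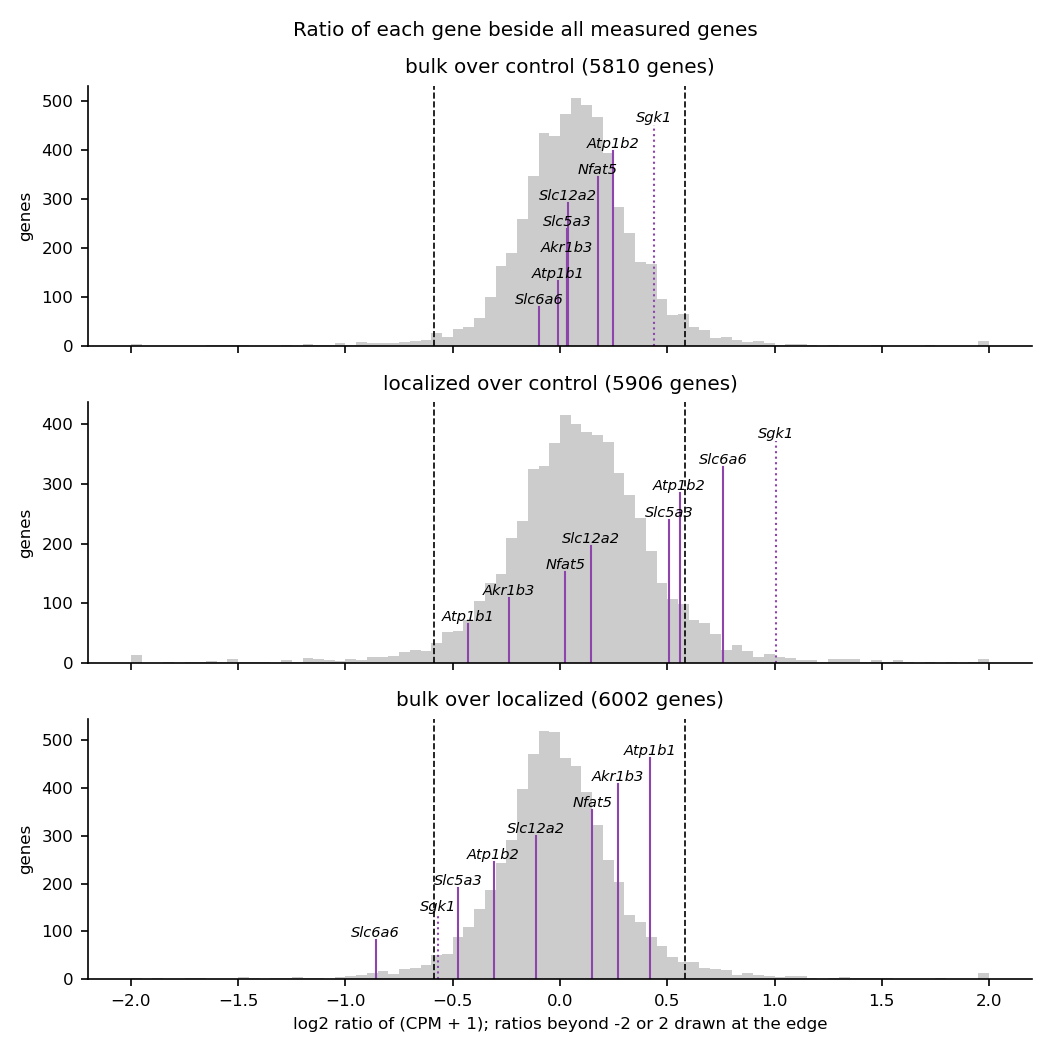
Log2 ratios of CPM + 1 for all genes that reach 20 CPM in 1 or both libraries (grey, number of genes per bin) and for the 8 genes (vertical lines, dotted for Sgk1, which is below that minimum), with dashed lines at 1.5-fold. Line heights only separate the names, and in localized over control Slc6a6 at 0.76 and Sgk1 at 1.01 lie past the upper limit.

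Cells were grouped into 9 clusters on genes that did not include the 8 genes or those of the pathway lists. Leading genes were taken over the cells of all 3 libraries together. Cluster 1 was astrocyte-like, led by Apoe and Gfap beside Fbxo32, Cdkn2b and Hbegf. Its Gfap stood at 40.4 CPM in localized cells but at only 1.48 in control and 3.20 in bulk cells. Clusters 2 and 4 were like dividing cells, cluster 2 led by histone genes and cluster 4 by Cdc20 and Cenpa, and cluster 3 was unnamed and led by the replication genes Ung, Ccne2 and Cdc6. Clusters 5 and 6 were oligodendrocyte precursor-like, led by Pdgfra and Lhfpl3, and cluster 8 was oligodendrocyte-like, led by Bcas1, Mbp and Enpp6, among others. A marker was raised when it stood at least 1.5-fold above all other cells, after a constant was added to both levels. Cluster 6 had all 8 markers of dividing cells raised beside 5 of 8 precursor markers, so it was also like dividing cells. Cluster 8 had 7 of 8 precursor markers raised, with Gpr17 among its leading genes, beside 7 of 9 oligodendrocyte markers. Cluster 7, unnamed and led by the interferon-response genes Ifit1 and Rsad2, held 393 bulk cells but only 8 control and 12 localized cells. Cluster 9, unnamed and led by Hmox1, held 12 control, 49 bulk and 54 localized cells. Levels are given where a library had at least 50 cells in a cluster, which left 7 clusters for localized over control and 6 for bulk over control. Clusters share their library, so they are not replicates. These names were rebuilt from marker genes and are not the authors'.

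Atp1b1 encodes the beta subunit that is most widely used in the body (ENSMUSG00000026576, GRCm38 chromosome 1, 164437109 to 164458355, minus strand, protein coding). It had 6198 UMIs in control cells, 7723 in bulk and 5661 in localized cells, which gave 100.3 CPM (97.8 to 103), 99.7 CPM (97.5 to 102) and 74.3 CPM (72.4 to 76.3). Control and bulk overlapped within counting error, and localized electroporation lay below both. Control was 1.35-fold (1.30 to 1.40) above localized electroporation, and bulk was 1.34-fold (1.30 to 1.39) above it. After each cell was thinned to 3000 UMIs, 20.9% of control, 21.3% of bulk and 17.8% of localized cells held an Atp1b1 UMI. The unthinned shares were 47.3%, 52.7% and 45.9%. Barcodes of 10 to 100 UMIs, which hold mostly free RNA, stood at 71.5, 52.4 and 33.6 CPM in the same order, also lowest with localized electroporation. No cell class here is known to lack the 8 genes, so the part of such shares that free RNA gives was not measured.

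The level of Atp1b1 depended strongly on the cluster. It was 148 CPM (143 to 154) in the astrocyte-like cluster 1 of control and 24.9 CPM (20.6 to 29.8) in the precursor-like cluster 5, a 5.96-fold (4.95 to 7.22) span. Clusters 2 and 4 lay between, at 107 CPM in cluster 2 and 76.9 CPM in cluster 4. Localized over control, Atp1b1 was lower in 6 of 7 clusters, and the interval lay below 1 in clusters 1, 2 and 6, with ratios of 0.712, 0.719 and 0.674. Clusters 3, 4 and 5 had ratios of 0.924, 0.910 and 0.901, whose intervals included 1. In bulk over control cluster 5 stood alone with 1.55-fold (1.22 to 1.98), at 38.7 CPM, and Atp1b1 was the only 1 of 7 measured genes past 1.5-fold higher there, beside 5.63% of all genes.

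Atp1b2 encodes the beta subunit long known in glia as an adhesion molecule (ENSMUSG00000041329, chromosome 11, 69599736 to 69605942, minus strand, protein coding). Its 2931 UMIs in control, 4381 in bulk and 5355 in localized cells gave 47.4 CPM (45.7 to 49.2), 56.5 CPM (54.9 to 58.2) and 70.3 CPM (68.4 to 72.2). The 3 libraries did not overlap within counting error, with control lowest and localized electroporation highest. Localized electroporation was 1.48-fold (1.42 to 1.55) and bulk 1.19-fold (1.14 to 1.25) above control. The log2 ratio of bulk over control was 0.248 in all cells. It was 0.135 without cells above 25000 UMIs and 0.134 in the largest cluster, both moves beyond counting error. By cluster, bulk over control was above 1 in 5 of 6, and the interval lay above 1 in 3. Thinned shares of cells with a UMI were 11.5%, 13.1% and 17.7% in the same order, and unthinned ones 31.9%, 41.8% and 47.9%. Low-count barcodes stood at 45.4, 39.3 and 41.6 CPM and did not follow the order of the cells.

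Like Atp1b1, Atp1b2 was highest in cluster 1 of control and localized cells and low in the precursor-like clusters, at 58.3 CPM against 18.9 CPM in cluster 6 of control. In localized over control it was higher in 7 of 7 clusters, from 1.35-fold in cluster 4 to 2.11-fold (1.57 to 2.87) in cluster 6, with the interval above 1 in all but cluster 8. In cluster 1 the level was 58.3 CPM in control, 64.1 in bulk and 90.9 in localized cells. Gfap, an astrocyte marker, stood in the same cells at 1.48, 3.20 and 40.4 CPM, so cluster 1 of the localized library also differed in astrocyte markers, and the part of this in the Atp1b2 level was not tested.

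The beta subunits differed in opposite directions, so the make-up of the family differed between the libraries. Of all UMIs of Atp1b1, Atp1b2 and Atp1b3, Atp1b2 took 23.3% in control cells (22.6 to 24.0, exact binomial interval), 26.2% with bulk (25.6 to 26.9) and 34.6% with localized electroporation (33.9 to 35.4). Atp1b1 took 49.3%, 46.3% and 36.6%, and Atp1b3 27.4%, 27.5% and 28.7%. The share of Atp1b2 was above control in localized cells of each of the clusters 1 to 6, with 22.8% against 36.7% in cluster 1 and 17.8% against 32.1% in cluster 6. Shares compare UMIs of different genes, and the number of UMIs per transcript may differ between genes, so only their difference between libraries is read here.

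**Figure D3:**
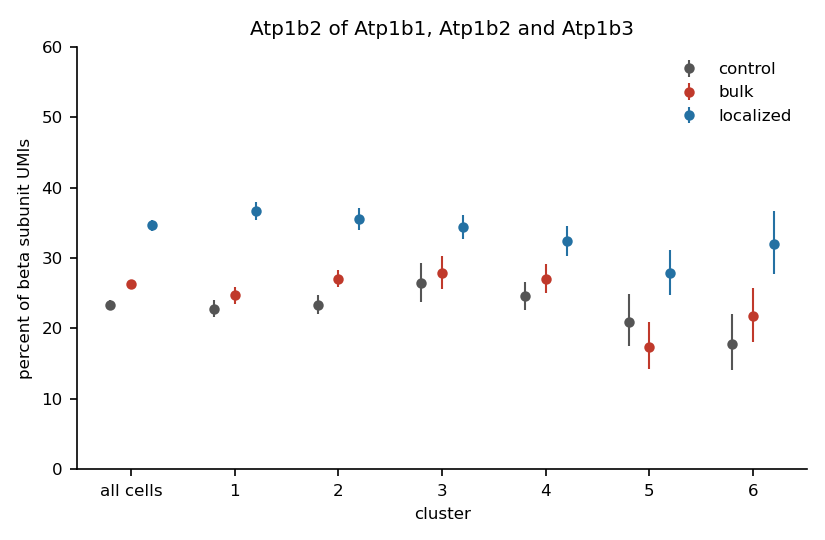
Share of Atp1b2 among the UMIs of the beta subunit genes Atp1b1, Atp1b2 and Atp1b3, in percent, over all cells and in clusters 1 to 6 of each library, with exact binomial intervals at 95%. In all cells Atp1b2 took 34.6% in localized cells against 23.3% in control and 26.2% in bulk.

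Slc12a2 encodes NKCC1, which carries sodium, potassium and chloride into the cell (ENSMUSG00000024597, chromosome 18, 57878678 to 57946821, plus strand, protein coding). It had 1574 UMIs in control, 2025 in bulk and 2156 in localized cells, or 25.5 CPM (24.2 to 26.8), 26.1 CPM (25 to 27.3) and 28.3 CPM (27.1 to 29.5). Control and bulk overlapped, and localized electroporation was 1.11-fold (1.04 to 1.19) above control. Thinned shares of cells were 7.52%, 7.23% and 7.59%, within each other's counting error. Within clusters the ratio of localized over control ran from 0.894 to 1.16, and its interval lay above 1 only in clusters 1 and 2. Slc12a2 varied little over clusters 1 to 6, by 1.64-fold in control, but stood at 54.2 CPM (37.3 to 76.2, from 33 UMIs) in the oligodendrocyte-like cluster 8 of control and at 48.5 CPM (38.9 to 59.6) in that of localized cells. Of the 15 cation-chloride cotransporters and kinases that regulate them, 3 were measured and 0 were past 1.5-fold in any comparison. Of all measured genes 5.37% were past it in bulk over control, 9.35% in localized over control and 6.38% in bulk over localized electroporation.

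Nfat5 encodes the transcription factor of the hypertonic response (ENSMUSG00000003847, chromosome 8, 107293470 to 107379517, plus strand, protein coding). Its 1549 UMIs in control, 2205 in bulk and 1944 in localized cells gave 25.1 CPM (23.8 to 26.4), 28.5 CPM (27.3 to 29.7) and 25.5 CPM (24.4 to 26.7). Bulk lay above both other libraries, 1.13-fold (1.06 to 1.21) above control, and localized electroporation overlapped control with a ratio of 1.02 (0.952 to 1.09). In bulk over control the interval lay above 1 in clusters 1 and 2, at 1.21-fold (1.08 to 1.36) and 1.2-fold (1.06 to 1.36). Localized over control, no cluster had an interval wholly above or below 1. Transcript level does not show NFAT5 activity, which is known to be set largely by transport of the protein into the nucleus.

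Slc5a3 encodes SMIT1, which takes up myo-inositol with sodium (ENSMUSG00000089774, chromosome 16, 92058322 to 92087473, plus strand, protein coding). It lies within the locus of Mrps6, a mitochondrial ribosomal protein gene on the same strand from 92058270 to 92112227, so reads of overlapping transcripts may not be assigned with certainty. The sequence just upstream of both genes is shown because they share it, from RefSeq windows on GRCm38.p6, chr16:92058072-92058269, plus strand, 198 bases, ending at the base before the start of Mrps6. Capitals mark GGGCGG, the core of the GC box, searched on both strands.

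Slc5a3: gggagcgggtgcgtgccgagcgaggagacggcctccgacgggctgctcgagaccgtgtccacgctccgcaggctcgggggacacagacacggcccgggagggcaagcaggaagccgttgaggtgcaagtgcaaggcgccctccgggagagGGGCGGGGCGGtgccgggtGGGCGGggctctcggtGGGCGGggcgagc

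GGGCGG occurred 4 times, with the first and second match sharing 1 base. It was found in 32.7% of 32851 promoter windows of 250 bases, so its presence is common. TGGAAA, the core letters of NFAT family sites, which 18.6% of the windows held on either strand, was not found in the 250 bases upstream of Slc5a3.

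Slc5a3 had 3564 UMIs in control, 4582 in bulk and 6290 in localized cells, which gave 57.7 CPM (55.8 to 59.6), 59.1 CPM (57.4 to 60.9) and 82.6 CPM (80.5 to 84.6). Control and bulk overlapped, and localized electroporation stood apart, 1.43-fold (1.37 to 1.49) above control and 1.40-fold (1.34 to 1.45) above bulk. Mrps6 stood at 264.5, 265.3 and 294.5 CPM and was 1.11-fold (1.09 to 1.14) above control in localized cells. The localized library was thus higher for both genes of the locus, by a larger ratio for Slc5a3. Thinned shares of cells with an Slc5a3 UMI were 12.5% in control, 13.2% in bulk and 18.6% in localized cells, and unthinned ones 31.3%, 39.3% and 45.9%. Low-count barcodes stood at 88.5, 62.7 and 45.2 CPM, in the opposite order to the cells.

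Across clusters Slc5a3 had the widest range of the 8 genes over clusters 1 to 6 of control. It stood at 94.0 CPM (89.7 to 98.5) in the astrocyte-like cluster 1 and at 13.8 CPM (10.2 to 18.3) in the precursor-like cluster 6, a 6.80-fold span. In localized cells the same clusters had 129 CPM (124 to 134) and 23.3 CPM (18.6 to 28.9), so both were higher and the order was kept. Localized over control was above 1 in 7 of 7 clusters, from 1.22-fold in cluster 8 to 1.69-fold (1.17 to 2.45) in cluster 6, and only the interval of cluster 8 included 1.

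Slc6a6 encodes TauT, which takes up taurine with sodium and chloride (ENSMUSG00000030096, chromosome 6, 91684053 to 91759066, plus strand, protein coding). It had 1342 UMIs in control, 1567 in bulk and 2856 in localized cells, or 21.7 CPM (20.6 to 22.9), 20.2 CPM (19.2 to 21.2) and 37.5 CPM (36.1 to 38.9). Control and bulk overlapped, and the localized library was higher by 1.73-fold (1.62 to 1.84) over control and 1.85-fold (1.74 to 1.97) over bulk. Among the 5906 genes measured in localized over control, 160 had a higher log2 ratio. In bulk over localized electroporation 62 of 6002 had a lower one. Thinned shares of cells were 6.57%, 5.98% and 10.2%, and unthinned ones 17.7%, 22% and 30.03%. Low-count barcodes stood at 24.7, 11.7 and 18.8 CPM.

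Slc6a6 was distributed differently from Slc5a3, with higher levels in the precursor-like clusters. In control it stood at 18.1 CPM (16.2 to 20.1) in cluster 1 and at 43.9 CPM (38.1 to 50.3) in the precursor-like cluster 5, 2.42-fold (2.03 to 2.89) higher. In localized cells cluster 5 reached 83.1 CPM (76.3 to 90.4) and cluster 1 29.9 CPM (27.6 to 32.3). The oligodendrocyte-like cluster 8 was similar, at 52.6 CPM (36.0 to 74.2) in control and 79.0 CPM (66.6 to 92.9) in localized cells. Localized over control was above 1 in 7 of 7 clusters, from 1.45-fold (1.22 to 1.73) in cluster 4 to 1.89-fold (1.61 to 2.23) in cluster 5, and each of the 7 intervals lay above 1. In bulk over control the ratios ran from 0.795 to 1.12, and only cluster 4 had an interval that did not include 1. Cluster 7 of bulk had 12.9 CPM (10.8 to 15.4), below clusters 1 to 6 of that library.

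Akr1b3 encodes aldose reductase, which makes the osmolyte sorbitol from glucose (ENSMUSG00000001642, chromosome 6, 34302434 to 34317478, minus strand, protein coding). Its 5473 UMIs in control, 7029 in bulk and 5719 in localized cells gave 88.6 CPM (86.3 to 91.0), 90.7 CPM (88.6 to 92.9) and 75.1 CPM (73.1 to 77.0). Control and bulk overlapped, and localized electroporation lay below both. The ratio of localized over control was 0.847 (0.816 to 0.880). Thinned shares of cells were 23.4%, 23.4% and 19.1%. Localized over control, the interval lay below 1 in clusters 1 and 3, at 0.695 (0.645 to 0.749) and 0.763 (0.686 to 0.849), and included 1 in the other 5. The related gene Akr1b10 stood at 37.4 CPM in control, 33.6 in bulk and 20.3 in localized cells, and the sources used here do not say how reads that match both genes were handled, so the level of Akr1b3 is uncertain to that extent.

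The inositol and taurine carriers and aldose reductase, all of them targets of NFAT5, did not differ in the same direction in the localized library. Of the 12 genes of the list of NFAT5 and the hypertonic response, 6 were measured in localized over control. Among these 1 was past 1.5-fold higher and 1 lower, beside 9.35% of all measured genes in either direction. The higher one was Slc6a6, and the lower one was Slc38a2, an amino acid transporter gene, at 64.0 CPM against 103 CPM in control and 73.6 CPM in bulk. The list's median log2 ratio was 0.10 beside 0.09 over all genes. In bulk over control 0 of its 6 measured genes were past 1.5-fold, beside 5.37% of all measured genes. Genes of the list below 20 CPM are left out, so these counts do not describe them. Among those, Hspa1b stood at 8.32 CPM in control, 1.79 in bulk and 4.17 in localized cells. Pnpla6 stood at 3.25, 3.66 and 4.88 CPM and Gdpd5 at 3.55, 4.96 and 2.97 CPM in the same order. Aqp1 and Ranbp3l had at most 14 UMIs in each library. Slc6a12, the betaine transporter gene that responds to NFAT5 in kidney, had at most 1 UMI in each library.

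Sgk1 encodes the serum and glucocorticoid regulated kinase, which promotes the surface expression of ion channels and transporters (ENSMUSG00000019970, chromosome 10, 21882184 to 21999903, plus strand, protein coding). Of the 6 RefSeq promoter windows of this gene, 1 held a glucocorticoid response element, the letters AGAACA and TGTTCT with any 3 bases between, and it is shown for that reason: chr10:21993640-21993889 on GRCm38.p6, plus strand, 250 bases upstream of that start. Capitals mark the element and, after it, TGGAAA.

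Sgk1: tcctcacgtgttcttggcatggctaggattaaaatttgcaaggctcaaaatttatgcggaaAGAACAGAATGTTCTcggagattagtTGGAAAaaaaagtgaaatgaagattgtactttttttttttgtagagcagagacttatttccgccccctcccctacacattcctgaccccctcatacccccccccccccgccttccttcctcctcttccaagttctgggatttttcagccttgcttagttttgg

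The element spans 21993701 to 21993715 and, being a palindrome apart from its spacer, is matched on both strands. It was found in 3 of 32851 promoter windows, 0.00913%. Counts of 3′ ends do not show which start of Sgk1 was used, and the match is a description of these letters only.

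Sgk1 was the least abundant of the 8 genes by UMIs, with 556 in control, 971 in bulk and 1454 in localized cells. Its levels were 9.0 CPM (8.27 to 9.78), 12.5 CPM (11.8 to 13.3) and 19.1 CPM (18.1 to 20.1). The 3 libraries did not overlap within counting error, control being lowest and localized electroporation highest. Localized electroporation was 2.12-fold (1.92 to 2.34) and bulk 1.39-fold (1.25 to 1.55) above control, and localized was 1.52-fold (1.40 to 1.65) above bulk. Thinned shares of cells were 2.50%, 3.29% and 4.91%, and unthinned ones 7.14%, 13.1% and 14.1%. Low-count barcodes stood at 11.7, 13.4 and 11.6 CPM. These levels came from only 35, 49 and 32 UMIs, so their order among the libraries and beside the control cells is uncertain.

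Among the clusters Sgk1 was concentrated in the oligodendrocyte-like cluster 8. There it stood at 100.2 CPM (76.7 to 129, from 61 UMIs) in control and at 173 CPM (155 to 193, from 318 UMIs) in localized cells, 8.64-fold and 7.50-fold above cluster 1 of the same library. Cluster 8 was 1.15% of control and 1.91% of localized cells but held 11% and 21.9% of their Sgk1 UMIs. Without cluster 8, Sgk1 stood at 8.09 CPM in control, 11.8 in bulk and 15.3 in localized cells, and localized over control was 1.89 (1.70 to 2.10). The ratio was above 1 in 7 of 7 clusters, from 1.36 (0.956 to 1.97) in cluster 3 to 4.21 (2.27 to 8.41) in cluster 6, where control had only 13 UMIs. In bulk over control it was above 1 in 6 of 6 clusters, with the interval above 1 in clusters 1, 2 and 6. Of the 11 genes of SGK kinases, their partners and glucocorticoid-responsive genes, 3 were measured in each comparison and 0 were past 1.5-fold. Of all measured genes 5.37% were past it in bulk over control, 9.35% in localized over control and 6.38% in bulk over localized electroporation. The 3 leave out Sgk1 itself and the other genes of this list below 20 CPM, so the count does not describe them.

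**Figure D4:**
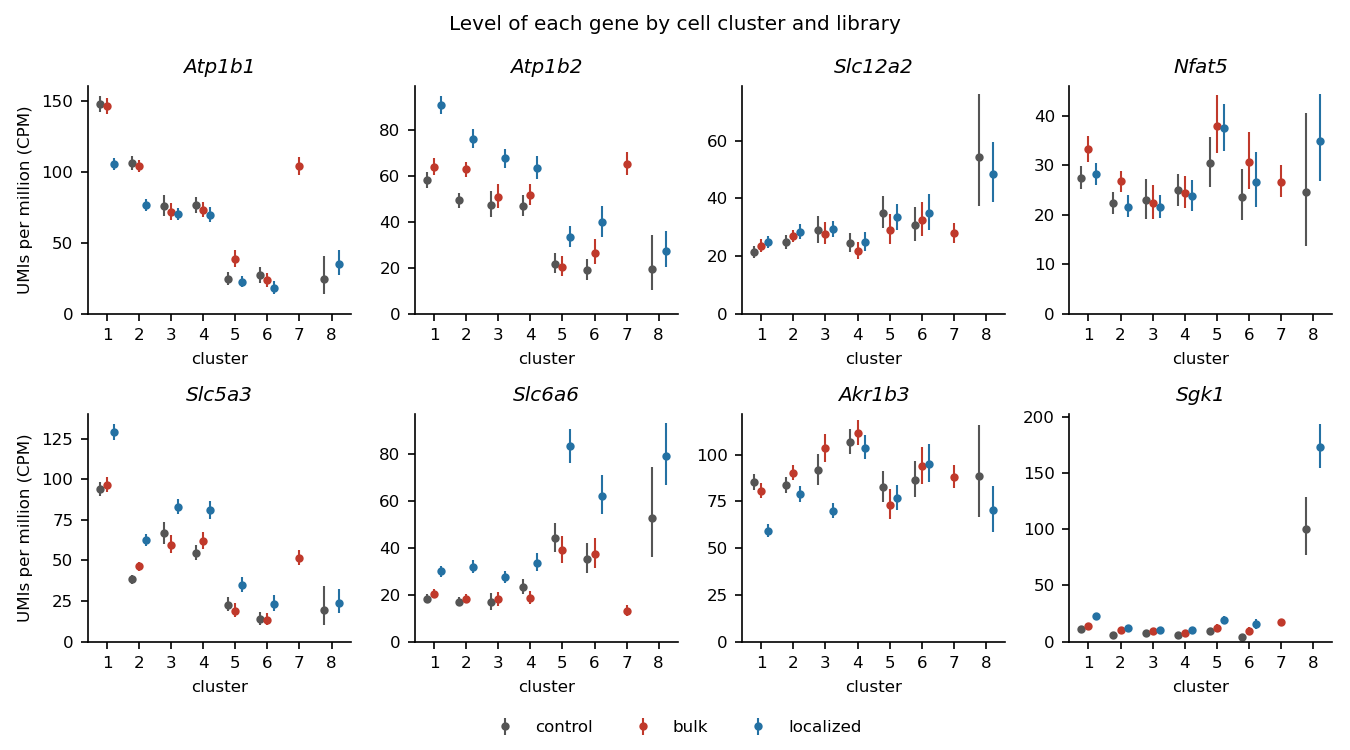
Level of each gene in CPM in clusters 1 to 8 of control, bulk and localized cells, where the library had at least 50 cells in the cluster, with exact Poisson intervals at 95%. Atp1b1, Atp1b2 and Slc5a3 are highest in the astrocyte-like cluster 1 (except Atp1b2 of bulk cells, at 65.4 CPM in cluster 7 and 64.1 in cluster 1), Slc6a6 in the precursor-like and oligodendrocyte-like clusters 5, 6 and 8, and Sgk1 in cluster 8, at 173 CPM in localized cells.

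Taken by cluster, the genes past 1.5-fold higher in localized over control, among those of at least 20 CPM, differed from cluster to cluster. In cluster 1 they were Atp1b2, Slc6a6 and Sgk1, 3 of 8 measured, beside 11.4% of all genes. In clusters 2, 5 and 6 they were Atp1b2, Slc5a3 and Slc6a6, 3 of 7 in each, beside 7.68%, 7.61% and 8.11% of all genes. Slc6a6 was the 1 of 7 in cluster 3, beside 3.55%, while 0 of 7 were past the limit in cluster 4, beside 4.72%. In cluster 8 it was Sgk1, 1 of 8, beside 9.84%. Past 1.5-fold lower were 0 of the measured genes in each of these 7 clusters, beside 2.5% (cluster 3) to 6.67% (cluster 8) of all genes. Some of the genes counted reached 20 CPM only in localized cells. They were Slc6a6 and Sgk1 in cluster 1, Slc6a6 in clusters 2 and 3, and Atp1b2 and Slc5a3 in cluster 6. Their entry into these counts thus depended on the level being compared, and the counts are a description only.

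**Figure D5:**
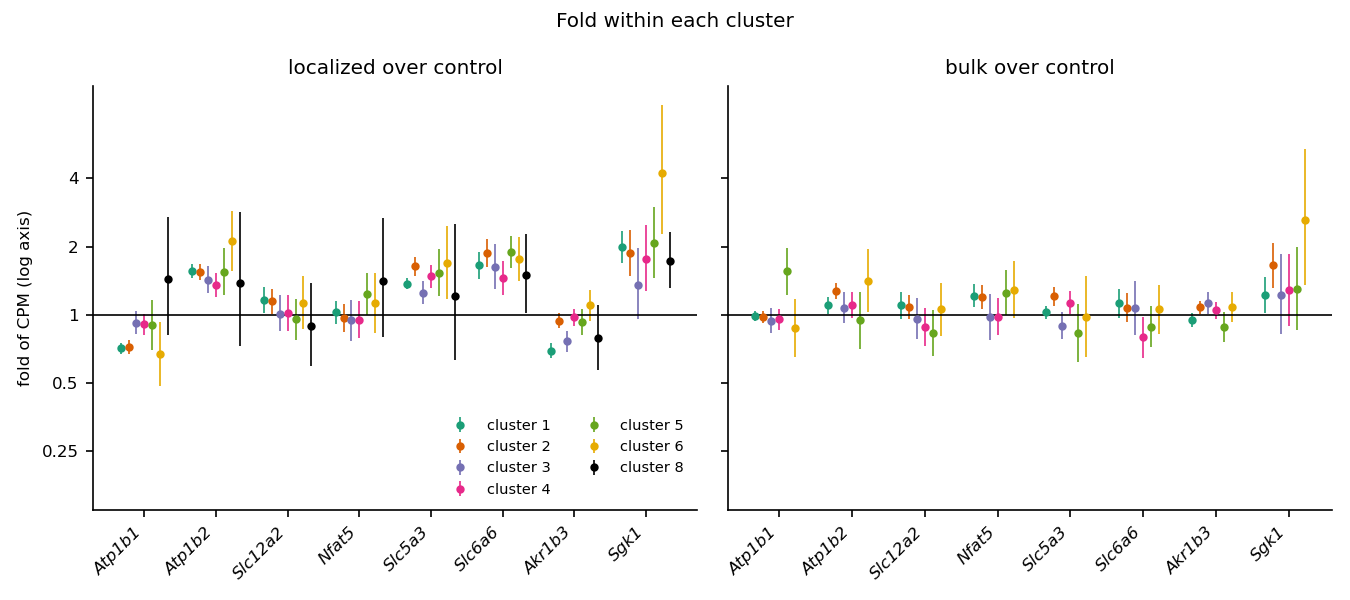
Ratio of CPM in localized over control (left) and bulk over control (right) within each cluster on a log axis, for the clusters with at least 50 cells in both libraries, with exact intervals at 95% for counting error. Slc6a6, Atp1b2, Slc5a3 and Sgk1 are above 1 in 7 of 7 clusters of the left panel, and Atp1b1 and Akr1b3 below 1 in 6 of 7.

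Over the 22 sums of a cluster in a library, Atp1b2 and Slc5a3 had similar patterns, with a Pearson r of log2(CPM + 1) of 0.90, and so had Atp1b1 and Slc5a3 with 0.82. Slc12a2 and Nfat5 had 0.81, and Atp1b1 and Slc6a6 ran opposite with -0.72. The sums share 3 libraries and their depths, so these values describe them and carry no p. The sum of cluster 9 of localized cells came from only 54 cells. It held 0 UMIs of Nfat5 and 2 of Slc12a2 (6.82 CPM). In every other sum Nfat5 stood at 21.6 CPM or more and Slc12a2 at 21.4 CPM or more. The part of this low sum in the r values of Nfat5 and Slc12a2, here and below, was not tested. Among 5877 genes, those most like Slc5a3 were Slc6a11, an astrocyte GABA transporter gene, with 0.95, Lrig1 with 0.95 and its overlapping neighbour Mrps6 with 0.95. Most like Slc6a6 were Sox8, an oligodendrocyte lineage factor, Tada3 and Cdc37l1, each with 0.94. For Sgk1 they were Shisa4 with 0.94, Araf with 0.93 and Sirt2 with 0.91. The sums of cluster 8 held Sgk1 at 100.2 CPM in control and 173 CPM in localized cells, and every other sum at 23.1 CPM or less. The part of cluster 8 in the r values of Sgk1 was not tested. Atp1b1 was nearest to Igfbp3 and Tmem35a, both with 0.96, and to Igfbp2 with 0.95, and Atp1b2 to Slc27a1 and Tmem47, both 0.95, and Cd109 with 0.94. Nfat5 was nearest to Proser1 and Ccdc88c, both 0.98, and Ubr2 with 0.97, and Slc12a2 to Slc22a23 with 0.96 and to Fto and Tmcc1, both 0.95. Akr1b3 had the weakest best match, Pom121 with 0.86, before Rdx with 0.85 and Hsp90b1 with 0.84.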

How the data were processed

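Whole UMI counts per gene and barcode were deposited for 3 libraries, including empty barcodes. Per the submitters' processing notes, Cell Ranger 6, Seurat 4.0.4 and GRCm38 (mm10) were used; per the file headers, Cell Ranger 4 wrote the matrices. How reads matching several genes were handled is not given in the sources used here. Since the labels give no replicates, no test was run.

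The 8 genes, the pathway lists, the markers and the alternatives were chosen with earlier results of these data known. UMIs were summed over cells of at least 3000 UMIs, 500 genes and at most 20% mitochondrial UMIs and scaled to 1000000 per library. Ratios on the log2 scale used a pseudocount of 1 CPM, which lowers ratios of low genes, while folds with intervals used none. Sums have exact Poisson intervals, shares exact Clopper-Pearson ones and ratios exact conditional ones, at 95%, for counting error only. All 8 genes were named, up to 4 genes per list past 1.5-fold in a comparison, and the 3 genes of most similar pattern. Other genes were chosen after their values were seen, namely Atp1b3, Mrps6, Akr1b10, Slc6a12, Lrrc8a, Hspa1b, Pnpla6, Gdpd5, Aqp1 and Ranbp3l.

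Cells were clustered with scanpy 1.11.5 on 2000 variable genes, after scaling in each library alone, using 30 components, 15 neighbours and a Leiden resolution of 0.5. No doublet caller was run. Some results are not reported here. Coordinates are GENCODE vM21 on GRCm38. Promoter windows, credited to RefSeq on GRCm38.p6, matched 4 of the 8 genes. On data drawn from the library sums with known changes, the rule called 67 of 67 genes made 2-fold different and 0 of 67 made 1.2-fold different in localized over control, among 5381 genes. These changes lie on either side of the 1.5-fold limit, and the drawn data hold counting error only. The outcome thus checks the calculation and says nothing about the spread between libraries.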

Additional observations from a re-analysis of the deposited data

How the results depend on the processing

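In bulk over control 0 of 7 measured genes were past 1.5-fold, beside 5.37% of all genes, and the count stayed 0 under each of the 16 alternatives. Sgk1 was measured only at a minimum of 5 CPM, 0 of 8 beside 7.43%, and with no minimum, 0 of 8 beside 3.06%. In the largest cluster it was 0 of 7 beside 8.26%. At a fold of 2 it was 0 of 7, where 70 of 5810 genes were past that fold. In localized over control Slc6a6 was 1 of 7 measured genes past 1.5-fold, beside 9.35% of all genes in either direction. With every cell counted alike it was 3 of 7 beside 9.41%, and with 10% free RNA subtracted 3 of 7 beside 10.9% (Atp1b2 and Slc5a3 added in both). With cells thinned to 3000 UMIs it was 4 of 8 beside 9.51% (Sgk1 added to those), and in the largest cluster 3 of 8 beside 15.1% (Atp1b2, Slc6a6 and Sgk1). In that cluster Slc6a6 and Sgk1 reached 20 CPM only in localized cells. It was 2 of 8 at a minimum of 5 CPM beside 11.8% and with no minimum beside 5.32% (Slc6a6 and Sgk1). With the cluster mix of control held fixed, an alternative chosen after seeing the data, it was 2 of 7 beside 8.83% (Atp1b2 and Slc6a6), and at a fold of 2 it was 0 of 7 beside 2.24%. In bulk over localized electroporation the 1 of 7 beside 6.38% became 2 of 8 beside 5.70% with thinned cells (Slc6a6 and Sgk1) and 0 of 7 beside 1.58% at a fold of 2. In the largest cluster it was 1 of 8 beside 8.89%. That gene was Sgk1, which reached 20 CPM there only in localized cells, and not Slc6a6, whose log2 ratio was -0.53 there. The cause was not tested.

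Of 312 single values, 256 moved by less than their counting error and 56 by more, and of those beyond counting error from 0 none changed sign. In localized over control the log2 ratio of Slc6a6 ranged from 0.66 to 0.88, Sgk1 from 0.78 to 1.13, Atp1b2 from 0.49 to 0.66, Slc5a3 from 0.44 to 0.69, Atp1b1 from -0.50 to -0.31 and Akr1b3 from -0.52 to -0.21. Median-of-ratios scaling shifted all genes by -0.06, -0.07 and 0.01 in the 3 comparisons. With 1 library per group the spread between libraries is unknown, and free RNA and doublets were not removed. No paired analysis was possible because each group has 1 library.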

Other observations

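Water and potassium channel genes were also read from a list chosen with earlier results known. Of 15 genes, 4 were measured in localized over control. Aqp4, the water channel of astrocyte endfeet, was the 1 past 1.5-fold higher, beside 6.48% of all measured genes. It stood at 20.3 CPM against 9.18 CPM in control and 12.4 CPM in bulk. Aqp4 thus counted as measured only through its level in localized cells. Kcnj10, the astrocyte potassium channel gene, stood at 22.1 CPM in control, 18.7 in bulk and 32.4 in localized cells. Kcnj10 and Aqp4 were 2 of 6 measured genes past 1.5-fold lower in bulk over localized electroporation, beside 2.98% of all measured genes. In that comparison both reached the minimum of 20 CPM only in localized cells. Lrrc8a, the essential subunit of the volume-regulated anion channel, stood at 19.1, 20.1 and 19.5 CPM. Of 15 calcium pumps, exchangers and bicarbonate transporters, 4 were measured and 0 were past 1.5-fold in any comparison. Of all measured genes 5.37% were past it in bulk over control, 9.35% in localized over control and 6.38% in bulk over localized electroporation.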
